A study of Mus musculus with 9 samples.

Results

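The 10 genes described here encode proteins that build or modify the brain's extracellular matrix, in perineuronal nets and elsewhere. They are the lecticans Acan, Bcan, Ncan and Vcan, the link proteins Hapln1, Hapln2 and Hapln4, the tenascins Tnc and Tnr, and the sulfotransferase Chst3. The genes were listed by name, and they were selected on a contrast of old with young brain in the same libraries, so their age differences are given as descriptions with no p-values, and counts of members past a threshold stand only beside the share of all genes past it. All 10 had a row among the 49315 genes of the count table and passed the filter on low counts, which 18492 genes passed. The RNA came from whole brains of wild-type (WT) C57BL/6J mice, which the study's methods give as male. Young mice (n = 5) were 3 months old by the labels, or 3 to 4 months by the methods, and old mice (n = 4) were 33 months old. The labels give no engineered allele and no treatment for either group. Each library came from the brain of 1 mouse, and polyA-selected RNA was sequenced.

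Perineuronal nets are condensed lattices of matrix around the soma and proximal dendrites of certain neurons, above all fast-spiking interneurons that express parvalbumin. Long chains of hyaluronan form the backbone, lecticans bind to them through their N-terminal domain, link proteins hold both together, and tenascin-R cross-links the C-terminal domains of the lecticans. The lecticans carry chondroitin sulfate chains, and sulfotransferases such as Chst3 set the position of the sulfate groups on them. Related, looser matrix fills the space between other cells, at nodes of Ranvier and around synapses.

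The counts per library ranged from 14229259 to 21150439. Values are CPM, the reads of a gene scaled to a common library size, after TMM normalization, which corrects for library size and composition, in the order of young replicates 1 to 5 and old replicates 1, 3, 4 and 5. Young replicate 4 stood apart from the other young mice in markers of activated microglia, whose mean log2 CPM was 2.12 above the young mean there and from 0.42 to 0.62 below it in the other 4 young mice. It was also the highest young mouse in the markers of reactive astrocytes, at 1.04 above the young mean. In whole tissue, fewer cells of a type and less RNA per cell cannot be told apart.

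Of the 10 genes, Tnc and Chst3 had the largest log2 fold changes between the ages. In a pattern over the mice that includes this difference, on which the members were chosen, each was the nearest gene to the other. The 250 bases before the start site of both, and of Hapln2, which differed in the other direction, are shown here because these are the members with the largest age differences. The sequences come from RefSeq (GRCm38.p6) and are written 5′ to 3′ on the strand of the gene, with capitals at matches on either strand to the TATA box (TATAAA), the GC box (GGGCGG), the CCAAT box (CCAAT), the E-box (CACGTG) and the AP-1 motif (TGANTCA). All 3 genes lie on the minus strand, and the windows are chr4:64047016-64047265 for Tnc, chr10:60219261-60219510 for Chst3 and chr3:88027512-88027761 for Hapln2.
Tnc: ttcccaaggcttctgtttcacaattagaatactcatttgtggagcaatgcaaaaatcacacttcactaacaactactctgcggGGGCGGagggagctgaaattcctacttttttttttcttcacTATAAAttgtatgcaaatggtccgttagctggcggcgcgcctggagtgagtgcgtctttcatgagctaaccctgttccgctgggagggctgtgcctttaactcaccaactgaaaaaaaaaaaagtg
Chst3: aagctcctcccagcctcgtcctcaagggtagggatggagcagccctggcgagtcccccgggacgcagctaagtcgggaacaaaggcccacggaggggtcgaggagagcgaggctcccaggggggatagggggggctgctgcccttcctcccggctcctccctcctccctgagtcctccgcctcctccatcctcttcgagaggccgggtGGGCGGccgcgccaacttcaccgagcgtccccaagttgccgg
Hapln2: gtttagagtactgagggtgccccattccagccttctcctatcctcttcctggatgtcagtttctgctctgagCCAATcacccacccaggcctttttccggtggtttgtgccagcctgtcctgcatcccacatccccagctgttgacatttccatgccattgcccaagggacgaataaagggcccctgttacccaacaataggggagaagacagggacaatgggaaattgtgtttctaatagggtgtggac
The Tnc window held a TATA box that began 126 bases before the start site and a GC box at 167 bases. The Chst3 window held a GC box at 42 bases, and the Hapln2 window a CCAAT box at 178 bases. RefSeq gave a window for 9 of the 10 genes, with a second start site for Tnc, and not for Hapln4. A TATA box was present for 2 of these 9 genes and in 12.4% of all 32851 windows of this length. A GC box was present for 6 of 9 and in 32.7% of all windows, and a CCAAT box for 4 of 9 and in 33.8%. The E-box, found in 6.02% of all windows, and the AP-1 motif, found in 6.75%, were in none of the 9. A match describes letters in the window and says nothing on whether a factor binds there.

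Tnc encodes tenascin-C, a hexameric glycoprotein of developing brain and of stem cell niches and reactive glia in the adult. Its level was 10.8, 8.08, 10.7, 8.12 and 8.71 CPM in the young mice and 3.13, 3.88, 4.10 and 3.93 CPM in the old mice. The ages did not overlap, and the lowest young mouse was well above the highest old one. The log2 fold change, old against young, was -1.30 (SE 0.13), a level 59.4% lower in old brain. Without young replicate 4 it was -1.35. Between 55 and 206 reads per library stand behind these values, so Tnc is among the less deeply covered members. An antisense transcript, 8030451A03Rik, overlaps exons of Tnc on the opposite strand and had from 0 to 3 counts per library.

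Tnr encodes tenascin-R, the tenascin of the adult net, made by oligodendrocytes and some neurons. It was measured at 211, 177, 186, 210 and 183 CPM in young brain and at 179, 184, 158 and 163 CPM in old brain. The lowest young mouse lay below the 2 highest old mice, and the log2 fold change was -0.18 (SE 0.063). Per transcript length, on the scale of the deposited TPM, the median ratio of Tnc to Tnr was 0.0789 in the young mice (range 0.0640 to 0.0956) and 0.0374 in the old mice (0.0289 to 0.0430). The balance between both tenascins thus lay further toward Tnr in every old mouse.

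Chst3 encodes chondroitin 6-O-sulfotransferase, which adds sulfate at carbon 6 of the N-acetylgalactosamine units of chondroitin. Its level was 6.32, 5.86, 6.39, 5.99 and 6.05 CPM in the young mice and 2.23, 2.82, 2.46 and 3.58 CPM in the old mice. The young mice lay close together (coefficient of variation 3.67%) and the old mice spread more widely (21.3%), with the highest old mouse well below the lowest young one. Its log2 fold change was -1.15 (SE 0.14), a level 54.8% lower in old brain, and it was -1.16 without young replicate 4. The reads behind Chst3 numbered from 40 to 124 per library.

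Acan encodes aggrecan, the lectican most closely tied to nets around neurons. Young brain had 7.42, 8.24, 10.1, 8.65 and 8.71 CPM and old brain 6.00, 7.83, 7.22 and 10.9 CPM. The highest mouse of all was old replicate 5 and the lowest old replicate 1, so the ages overlapped fully. The log2 fold change of -0.11 (SE 0.14) changed sign, to 0.012, without old replicate 1, and was -0.30 without old replicate 5.

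Bcan encodes brevican, a lectican of adult glia and neurons found at synapses and nodes. Its level was 255, 263, 254, 227 and 253 CPM in the young mice and 237, 237, 220 and 248 CPM in the old mice. Young replicate 4 stood below the other 4 young mice and inside the range of the old mice. With that mouse the log2 fold change was -0.088 (SE 0.045), and without it -0.12.

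Ncan encodes neurocan, a lectican abundant in the developing brain that stays present in the adult. The young mice had 208, 212, 178, 187 and 175 CPM and the old mice 142, 171, 123 and 178 CPM. Old replicate 5 lay above the lowest young mouse, and the other 3 old mice lay below every young one. At -0.33 (SE 0.12), its log2 fold change was the furthest from 0 among the lecticans, and it ranged from -0.41 without old replicate 5 to -0.23 without old replicate 4. Whether Ncan passed the threshold depended on the setting of the fit, as given with the counts of members.

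Vcan encodes versican, which oligodendrocyte precursors and other glia make and which is prominent at nodes of Ranvier. Levels of 22.8, 24.6, 25.6, 25.6 and 23.8 CPM in young brain stood beside 25.9, 22.1, 26.8 and 27.1 CPM in old brain. The ages overlapped, with 3 old mice above and 1 below all young mice. Its log2 fold change of 0.061 (SE 0.065) turned to -0.11 when limma was run on log2(TPM + 0.1), a scale on which the median of all genes shifted by -0.16.

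Hapln1 encodes the link protein that joins aggrecan to hyaluronan in cartilage and in nets. Young brain had 20.2, 19.1, 20, 18.9 and 18.3 CPM, and old brain 13.4, 20.2, 16.8 and 18.5 CPM. Old replicate 3 lay at the top of the young range, old replicate 5 within it, and the other 2 below it, old replicate 1 lowest. The log2 fold change of -0.17 (SE 0.092) became -0.062 without old replicate 1.

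Hapln2, also called Bral1, encodes a link protein made by oligodendrocytes and placed at nodes of Ranvier. Its level was 41.3, 41.5, 48.9, 48.5 and 46.7 CPM in the young mice and 70.0, 67.1, 79.0 and 60.9 CPM in the old mice. Every old mouse was above every young mouse, and Hapln2 was the only one of the 10 genes of which this was true. Old exceeded young by a log2 fold change of 0.61 (SE 0.074), or 0.64 without young replicate 4. On the TPM scales it was 0.44 at both pseudocounts and no longer passed the threshold. The median of all genes shifted by -0.14 and -0.16 on these scales.

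Hapln4, or Bral2, encodes a link protein of nets in brainstem and cerebellum. The young mice had 139, 134, 145, 146 and 143 CPM and the old mice 116, 117, 127 and 107 CPM. All old mice lay below all young mice, although the difference was small, with a log2 fold change of -0.27 (SE 0.045), or 17.3% lower. Without young replicate 4 it was -0.26. On both TPM scales, where the median of all genes shifted by -0.14 and -0.16, Hapln4 was further from 0, down to -0.44. It no longer passed the threshold there.

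**Figure D1:**
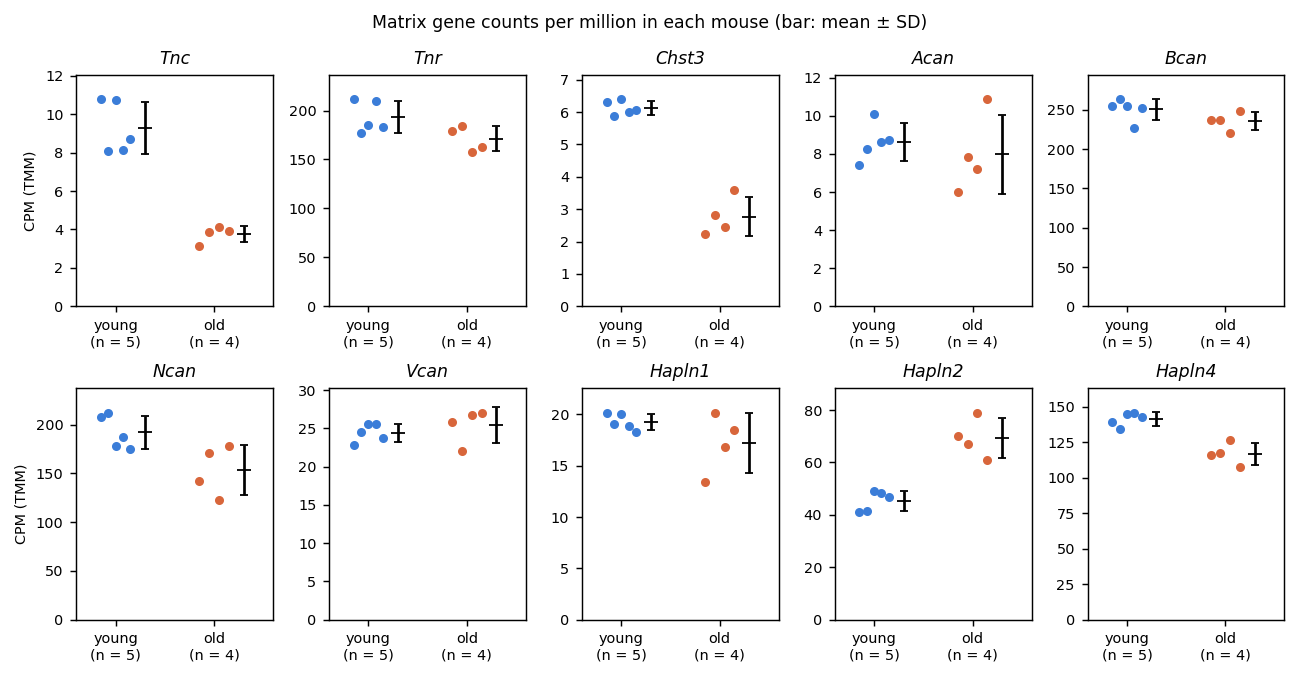
CPM after TMM normalization (y axis, from 0) of the 10 matrix genes in each mouse, young (blue, n = 5) and old (orange, n = 4), with the mean and SD beside the points. The ages do not overlap for Tnc, Chst3 and Hapln4, which are lower in old brain, and for Hapln2, which is higher, and they overlap for the other 6.

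The log2 fold change was below 0 for 8 of the 10 genes and above 0 for Vcan and Hapln2. The median over the 10 was -0.17, beside -9.2e-05 over all genes tested, for which the median SE was 0.085. Old mice lay wholly below young mice for 3 members, beside 6.08% of all genes tested, and wholly above for 1, beside 6.5%. With a threshold of 0.05 on the adjusted p of the edgeR fit, the counted members were Tnc, Chst3 and Hapln4 in the lower direction, beside 4.89% of all genes, and Hapln2 in the higher, beside 6.09%. The members were selected on this contrast, so nothing is read from these counts. The fit used edgeR's robust estimation. With that option off, Ncan was counted as well, which made 4 lower members. The count was also 4 without young replicate 2, where Tnr was the added gene. Summed over each role, the 4 lecticans had 475 ± 24.4 CPM in young and 423 ± 37.4 CPM in old brain (SD, n = 5 and 4). The 3 link proteins had 206 ± 8.28 and 203 ± 14.8 CPM, the sums of a higher Hapln2 and lower Hapln1 and Hapln4.

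**Figure D2:**
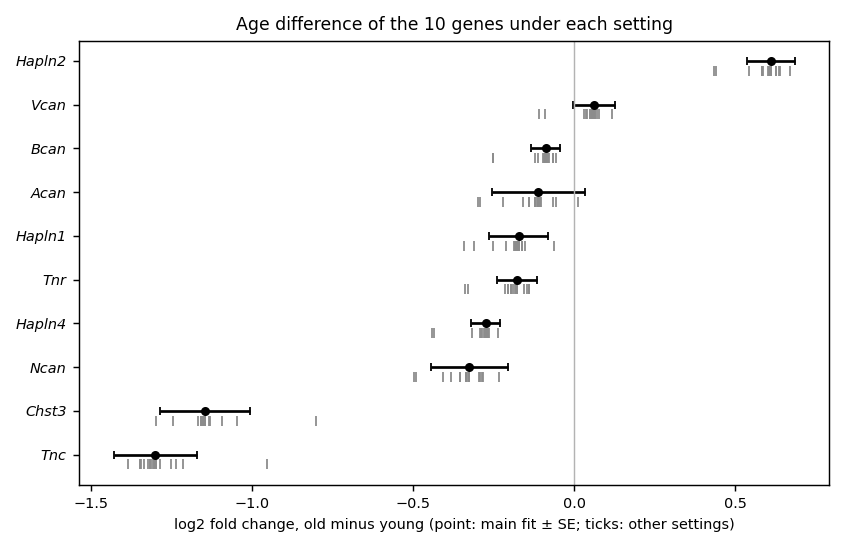
Log2 fold change, old minus young (x axis), of each matrix gene. Points and bars are the edgeR estimate and its SE, and grey ticks are the estimates under each other setting or with 1 mouse left out. Tnc at -1.30 and Chst3 at -1.15 stand apart from the other 8 genes under all of these, and the ticks of Acan and Vcan lie on both sides of 0.

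Compared by length, on the TPM scale, Bcan had the highest level in young brain with a median of 166 TPM, followed by Hapln4 (87.4 TPM), Ncan (75.5 TPM), Hapln2 (44.8 TPM), Tnr (35.7 TPM), Hapln1 (9.67 TPM), Vcan (4.30 TPM), Acan (2.70 TPM), Tnc (2.66 TPM) and Chst3 (2.31 TPM). Each gene was above the next in all 5 young mice except Acan, which was above Tnc in 3 of 5. Aggrecan transcripts were thus the least abundant of the lecticans. In old brain Hapln2 (68.6 TPM) stood above Ncan (49.4 TPM) in all 4 mice, and Hapln4 (69.7 TPM) was above Hapln2 in 3 of 4. Tnc (1.11 TPM) was above Chst3 (0.880 TPM) in 3 of 4 old mice. CPM per kilobase of annotated exon gave the same order at both ages.

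**Figure D3:**
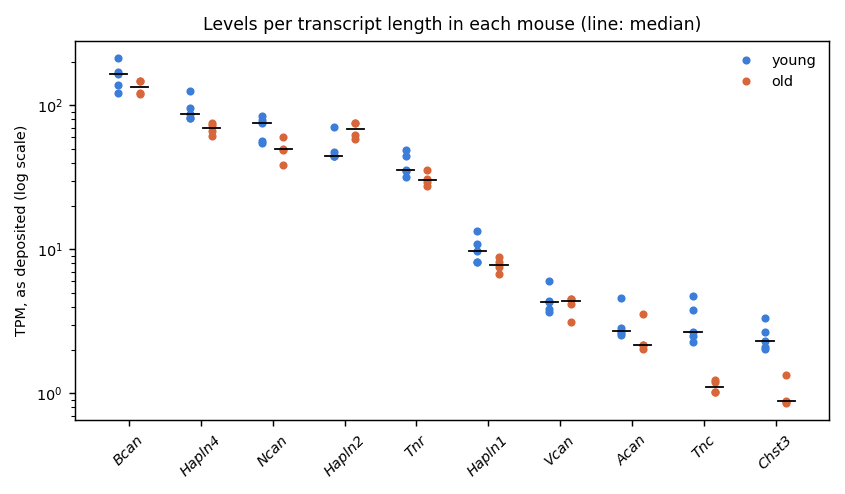
TPM as deposited (y axis, log scale) of the 10 genes in young (blue) and old (orange) mice, 1 point per mouse, with lines at the medians. Genes are ordered by the young median, from Bcan at 166 TPM to Chst3 at 2.31 TPM, and Hapln2 is the gene that takes a higher place in old brain.

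Each lectican gene lies next to a link protein gene in the mouse genome (GENCODE M21, GRCm38), with no protein-coding gene between them. Acan (chr7:79053483-79115099) ends 3 bp from Hapln3, Bcan (chr3:87987531-88000230) lies 21520 bp from Hapln2, Ncan (chr8:70093085-70120873) lies 2223 bp from Hapln4 and Vcan (chr13:89655312-89742509) lies 43660 bp from Hapln1. Neighbours did not share an age difference in every case. The log2 fold change was -0.088 for Bcan and 0.61 for Hapln2, and the median ratio of Hapln2 to Bcan on the TPM scale was 0.317 in young mice (0.270 to 0.366) and 0.496 in old mice (0.421 to 0.616). For the pair of Ncan and Hapln4 the log2 fold changes were -0.33 and -0.27. The ratio of Hapln4 to Ncan had a median of 1.43 in young and 1.38 in old mice, with overlapping ranges. Hapln3, the fourth link protein gene, had 1.27 ± 0.41 CPM in the young and 1.17 ± 0.47 CPM in the old mice (SD, n = 5 and 4). Chst3 (chr10:60181532-60219260) is flanked by Spock2, 46334 bp away.

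The likeness of other genes to Tnc and Chst3 was measured as the root mean square difference between log2 CPM profiles over the 9 mice, each centred on its mean, among 14503 genes. Chst3 was the nearest gene to Tnc, at 0.186, and Tnc the nearest to Chst3, where the median gene stood at 0.659 and 0.594. Next to Tnc came Usp43 (0.219), a ubiquitin-specific protease gene, and Nrep (0.254), which is expressed in immature and regenerating neurons. Next to Chst3 came Chodl (0.219), a C-type lectin gene, and Cyp11a1 (0.226), the enzyme that begins steroid synthesis. Young brain had 2.68 ± 0.22 CPM of Usp43 and 137 ± 14.2 CPM of Nrep (SD, n = 5). Old brain had 1.29 ± 0.25 and 74.2 ± 9.16 CPM (SD, n = 4). These genes share with Tnc and Chst3 the 9 libraries and the difference between the ages on which the members were chosen.

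Other genes that make, modify, cut or bind this matrix were followed in a list of 82 genes in 10 roles, none of them a member. Of the 77 tested, 7 passed an adjusted p under 0.05 (edgeR) in the higher direction and 5 in the lower, shares of 9.09% and 6.49% beside 6.09% and 4.89% of all genes. The median log2 fold change was -0.00039. The calls were thus few and went both ways.

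Among the enzymes of chondroitin, the nearest to Chst3 in function, 1 of 10 tested sulfation and epimerization genes passed. Ust, which sulfates uronic acid at carbon 2, fell by 0.27 on the log2 scale (SE 0.072, adjusted p = 0.024, edgeR), and lost the call in 3 of the 9 fits with 1 mouse left out. Chst7, the other chondroitin 6-O-sulfotransferase, had 1.91 ± 0.21 CPM in young and 2.29 ± 0.64 CPM in old brain (SD, n = 5 and 4), with a log2 fold change of 0.26 (SE 0.20) that did not pass the test. The 4-O-sulfotransferases Chst11 (61.1 ± 1.20 CPM in young and 60.5 ± 7.11 CPM in old brain) and Chst12 (16.0 ± 1.22 and 16.6 ± 0.57 CPM) had log2 fold changes of -0.016 and 0.049. None of 11 genes of chain synthesis passed in either direction, and the most abundant, B3gat3, had a log2 fold change of 0.00022. The 2 desulfation genes did not pass, with Arsb at 0.064. A p that misses the threshold does not show equal levels.

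Hyaluronan genes gave no call among 7 tested, and the most abundant, Tmem2, had a log2 fold change of 0.050. Spock2, a testican and the neighbour of Chst3, fell by 0.16 on the log2 scale (SE 0.033, adjusted p = 0.0047, edgeR), from 1144 ± 17.6 to 1024 ± 19.0 CPM, and was the only one of 8 other chondroitin sulfate proteoglycans to pass. Tnxb, the tenascin of connective tissue, rose by 0.56 (SE 0.096, adjusted p = 0.0012, edgeR), opposite in direction to Tnc. Of 14 proteases and inhibitors, Mmp14, a membrane-bound metalloproteinase, fell by 0.46 on the log2 scale (adjusted p = 0.0073, edgeR) and Timp3, a matrix-bound inhibitor of metalloproteinases, rose by 0.35 (adjusted p = 0.0010, edgeR). Syn3 overlaps exons of Timp3 on the opposite strand and had a mean of 17.6 CPM in the young and 17.7 CPM in the old mice.

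Of 8 receptors, Itgav, an integrin subunit, rose by 0.32 (adjusted p = 0.00018, edgeR) and Cd44, the hyaluronan receptor, by 0.60 (adjusted p = 0.011, edgeR). Cntn1, a contactin of nodes and axons that binds tenascins, fell by 0.16 on the log2 scale (adjusted p = 0.0059, edgeR), as did Itga9, an integrin subunit of a tenascin-C receptor, by 0.34 (adjusted p = 0.022, edgeR). Cd44 is also on the list of reactive astrocyte markers. Ligands that nets hold gave no call among 6, with Nptx1 at 0.030. Other glycoproteins gave 3 calls among 9, all higher. These were Thbs4 at 0.88 (adjusted p = 0.00078, edgeR), Thbs2 at 0.37 (adjusted p = 0.025, edgeR) and Fn1 at 0.34 (adjusted p = 0.036, edgeR). Thbs4 and Thbs2 encode thrombospondins and Fn1 fibronectin. The calls of Thbs2 and Fn1 were lost in 5 and 6 of the 9 fits with 1 mouse left out.

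**Figure D4:**
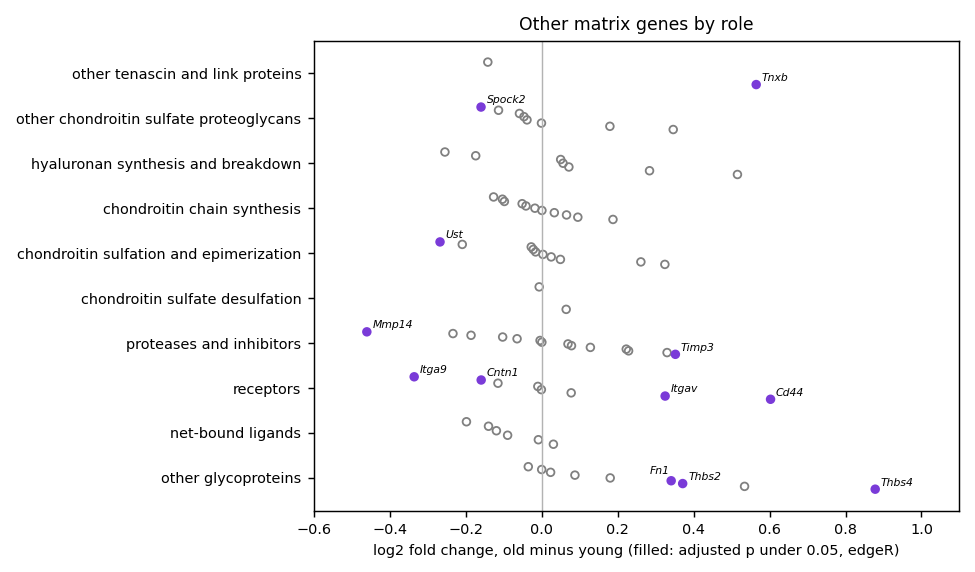
Log2 fold change, old minus young (x axis), of the 77 tested genes of the matrix list by role (y axis), 1 circle per gene. Filled circles passed an adjusted p under 0.05 in edgeR and are named, 7 at the right of 0 and 5 at the left. Vertical offsets within a role only separate the circles.

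Markers of cells that make these genes were read beside them. Over all genes tested, 6.09% were called higher and 4.89% lower, so 1 call in a short list says little about the list. For mature oligodendrocytes, the source of Hapln2, 4 of 12 markers rose and 1 fell at an adjusted p under 0.05 (edgeR), with a median log2 fold change of 0.15. Their summed level ranged from 6638 to 7773 CPM in young and from 7272 to 8945 CPM in old mice, none at 0, and the ranges overlapped. For oligodendrocyte precursors, 0 of 10 rose and 3 fell, among them Gpr17, a receptor of committed precursors, which fell by 0.83 on the log2 scale (adjusted p = 1.3e-06, edgeR), while Pdgfra had 0.051. The log2 fold change of these 10 markers was below 0 for 6 and above 0 for 4, with a median of -0.062. In mean log2 CPM the old mice were from 0.08 to 0.25 below the young mean. Young replicates 1 and 4 were 0.08 and 0.11 below it. The sum of the markers ranged from 361 to 423 CPM in young and from 363 to 443 CPM in old mice. Bcas1 alone had a mean of 202.5 CPM in young and 246.1 CPM in old brain. Parvalbumin neuron markers gave 1 higher call of 8, Tac1, and Pvalb itself had a log2 fold change of -0.14. Of these markers 5 had a log2 fold change below 0 and 3 above, with a median of -0.062. Their sum ranged from 941 to 1080 CPM in young and from 882 to 1012 CPM in old mice.

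Cerebellar markers, read beside Hapln4, gave no call, but the log2 fold change of all 8 was below 0, with a median of -0.33. Their summed level ranged from 664 to 940 CPM in young and from 427 to 770 CPM in old mice. Old replicates 3 and 5 were 0.82 and 0.61 below the young mean in mean log2 CPM, while old replicates 1 and 4 were 0.04 and 0.06 below it. The lowest young mouse, replicate 2, was 0.33 below it and also had the lowest Hapln4 of the young mice, 134 CPM. Hapln4 was 116, 117, 127 and 107 CPM in old replicates 1, 3, 4 and 5, each below all young mice. Reactive astrocyte markers were higher, 4 of 7 by the same test with a median log2 fold change of 1.33, and their sums (287 to 741 CPM in young, 897 to 1184 CPM in old mice) did not overlap. Astrocyte markers gave 1 lower call of 10 and 0 higher, with a median log2 fold change of 0.0014 and sums of 4366 to 4679 CPM in young and 4372 to 4485 CPM in old mice. Neuron markers gave 1 lower call of 9 and 0 higher, with a median of -0.025 and sums of 5842 to 6217 and 5715 to 6155 CPM. For stem cells and immature neurons, 0 of 8 were called higher and 1, Sox11, lower. The log2 fold change was above 0 for 5 of them and below 0 for 3, with a median of 0.17. Their sums ranged from 103 to 146 CPM in young and from 97.2 to 193 CPM in old mice. The part of these cell and region differences in the values of the 10 genes was not tested.

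**Figure D5:**
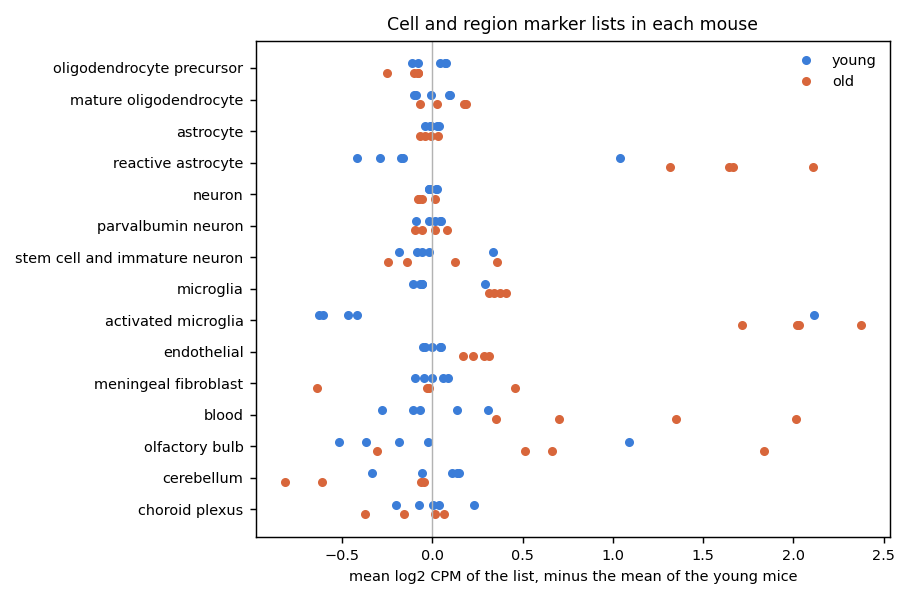
Mean log2 CPM of each marker list (y axis) in each mouse, given as the difference from the mean of the young mice (x axis), young in blue and old in orange. Reactive astrocyte markers are higher in all old mice, young replicate 4 lies with the old mice for activated microglia at 2.12, and 2 old mice are low for cerebellar markers.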

How the data were processed

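Reads were trimmed with Trimmomatic, aligned to GRCm38 with STAR and counted on exons with featureCounts, as the study's methods state. The authors deposited raw counts per Ensembl gene. They also deposited a signal for 17994 genes, the counts divided by 1 size factor per library, and TPM values, whose gene lengths are not given in the sources used here. 1 further column of per-sample values matched no sample and was not used. Counting is said to respect strand only for stranded libraries, and the kind used here is not stated.

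Genes were kept with filterByExpr (minimum count 10, minimum total 15), normalized with TMM and compared by the quasi-likelihood test of edgeR, with p adjusted after Benjamini and Hochberg over 18492 genes (R 4.3.3, edgeR 4.0.16). The main setting was chosen after seeing the data. Of 4 quasi-likelihood settings (robust estimation on or off, legacy mode on or off), compared by their totals over all genes, the robust legacy one was taken because it gave the totals of earlier work on these files. The other 3 are among the alternatives. SEs were computed from the fold change and the test statistic, and log2 CPM used a prior count of 2. P-values weigh the difference between the ages against the spread between mice of one age. DESeq2 1.42.0, limma 3.58.1 on log2 TPM or normalized counts, other filters and scalings, a replicate block and each mouse left out were alternatives. The edgeR and DESeq2 steps, and limma on log2 CPM, were tested on simulated counts. The limma fits on TPM and on normalized counts were not tested in this way.

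The members, the matrix and marker lists and the motifs were chosen with earlier results of these data known. Named genes are the members, up to 3 called genes of smallest adjusted p per matrix list or else the most abundant tested one, the 3 genes nearest to Tnc and to Chst3, and neighbouring link protein genes. Itga9, Chst7, Chst11, Chst12, Syn3 and single markers were named after their values were seen. Libraries of one age differed beyond sampling noise (chi-square over its degrees of freedom 4.05 or more), so each was 1 replicate. Symbols and positions are from GENCODE M21 (49056 of 49315 IDs matched).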

Additional observations from a re-analysis of the deposited data

Results flagged for a closer look

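In 50 groups of mice (both ages of each member and of the named matrix genes), 2 held a mouse whose gap to the nearest other exceeded Dixon's 95% limit of 0.71 for 5 mice, where chance gives about 2.5. Bcan was at 227 CPM in young replicate 4, beside 253 to 263 CPM in the other young mice (gap 0.723 of the range). Itgav was at 97.3 CPM in young replicate 2, beside 90.6 to 92.5 CPM in the others (0.717).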

How the results depend on the processing

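The 10 members kept the sign of their log2 fold change under all 21 alternatives, except Acan without old replicate 1 (0.012) and Vcan under both TPM scales (down to -0.11). With limma on log2(TPM + 1) and log2(TPM + 0.1), the median of all genes shifted by -0.14 and -0.16, calls over all genes fell to 307 and 304 higher and 287 and 296 lower, the matrix list gave 1 higher and 1 lower on both, no member (0) was called higher and 2 were called lower (Hapln2 and Hapln4 lost the call), and the members' median was -0.34 on the second. With an added fold threshold of 0.58, calls over all genes were 394 and 69, and those of the matrix list 2 and 0. Without the filter on low counts 8 matrix genes were lower.

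The choice of quasi-likelihood setting changed 1 member's call. All genes gave 1126 higher and 905 lower in the robust legacy fit used, 1146 and 893 with robust estimation off, 1127 and 891 with legacy mode off, and 1152 and 901 with both off. Ncan was not called in either robust fit and was called in both others, and also by limma on the normalized counts. The matrix list gave 7 and 5 in all 4.

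With 1 mouse left out, calls over all genes ranged from 879 to 1182 higher and from 622 to 852 lower, matrix calls from 5 to 8 and from 4 to 6, members called lower from 3 to 4 and higher 1 throughout, and the members' median from -0.23 to -0.14. Ust, Thbs2 and Fn1 had adjusted p from 0.050 to 0.093 where they lost the call. Deviations of same-numbered mice had correlations from -0.12 to 0.17 over 4 pairs, and those of other pairs ran from -0.22 to 0.16. The mice were treated as unpaired, and 4 pairs are too few to exclude a pairing by number. With the replicate block, 1060 genes were higher and 751 lower, the matrix list gave 8 and 5, and 4 members were called lower and 1 higher.

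Depth limits Tnc, Chst3 and Acan most, at 40 to 206 reads per library. Genes overlapped on the other strand cannot be separated if counting ignored strand.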

Other observations

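Further marker lists were measured in the same fit (adjusted p under 0.05, edgeR), in which 6.09% of all genes were called higher and 4.89% lower. Endothelial markers gave 4 higher calls of 7, blood 3 of 5, microglia 1 of 6 and activated microglia 2 of 6, with 0 lower in each. Meningeal fibroblast markers gave 1 lower of 8 and choroid plexus 1 of 6, with 0 higher in each. Olfactory bulb markers gave no call among 8, and their summed level ranged from 88.4 to 174 CPM in young and from 88.7 to 298 CPM in old mice.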
